A study of Mus musculus with 26 samples.

Results

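TCR Tg101 are CD8+ T cells of the mouse that carry a transgenic receptor for an antigen of the leukemia line C1498. One RNA-seq library of naive TCR Tg101 was labelled as made by oligo-dT regular sequencing, and it was compared here with the low-input library that bears the same number in its title. These are 1 and 2 of the 26 sequencing runs of the series, which form 15 libraries, and the other 14 are all low-input libraries. The members were picked by their titles and treatment labels, by a rule that uses no measured value and was written with earlier results of these data known. The comparison asks how the way of making the library changed the transcripts that were counted in the same kind of cell.

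The labels give all of these samples as wild type C57BL/6 mice, 6 weeks old, with spleen as the tissue. The study describes its Tg101 mice as transgenic for the receptor and crossed onto a Rag2-deficient background. The wild type label thus differs from the genotype that the study describes. The oligo-dT library (1 run) is labelled naive Tg101 with no day. The low-input library of the same number, called TG-10 here, was sequenced in 2 runs and is labelled naive Tg101 at day 0. A further low-input library with the day 0 label, XC-1 (2 runs), showed how far 2 low-input libraries of the same cells lay from each other. Per the study's methods, the cells were sorted by flow cytometry, their RNA was extracted with Trizol and chloroform, and low-input sequencing was done on the Illumina HiSeq platform in batches. Neither the labels nor the methods say whether the oligo-dT library came from the same RNA or the same mouse as TG-10, and the priming chemistry of the low-input libraries is not given in the sources used here. TG-10 and the oligo-dT library share the TG prefix, and XC-1 belongs to the XC series of titles. With 1 oligo-dT library there was no replicate check on its side, so ratios are given without p-values and are read against the difference between XC-1 and TG-10. A fit that borrows the spread of the other groups is given at the end, as counts. In sorted bulk cells, fewer cells of a type and less RNA per cell cannot be told apart.

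Most mature messenger RNAs end in a poly(A) tail, which is added downstream of a short signal in the transcript, and oligo-dT is a primer or bead that pairs with that tail. The messengers of the replication-dependent histones, which are made mainly in S phase to package new DNA, are the known exception: their mature form ends just past a stem-loop in the 3′ UTR and mostly carries no tail. Methods that capture RNA by its tail are known to recover them poorly, while transcripts of ribosomal proteins and most of those of the mitochondrial genome do carry tails. Mitochondrial tails are short.

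The values are estimated counts summed per gene. The oligo-dT library held 23189213 estimated counts, TG-10 65615912 and XC-1 49965572, and the 14 low-input libraries ranged from 22918996 to 71358287. Counts were put on the CPM scale (counts relative to library size) with TMM factors, which set the bulk of genes equal between libraries. The 12628 genes with a mean of at least 1 CPM over the oligo-dT library and TG-10 were compared, and each log2 ratio was taken after adding 0.5 CPM. A gene is called higher or lower where this ratio is at least 1 in size, that is 2-fold.

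The end of the transcript was read first. The stem-loop, searched as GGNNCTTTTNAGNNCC on the transcript strand in the last 100 bases of each gene's dominant protein-coding transcript, was found in 22 genes, 0.121% of all such transcripts, and all of them were replication-dependent histone genes. A poly(A) signal (AATAAA or ATTAAA) without the stem-loop was found in 71.8%, and neither in 28.1%. Absence of a match says only that the letters were not in the annotated last 100 bases. The following sites are shown because they include the gene of the highest level, Hist1h2ap, and each form of the stem-loop found; capitals mark the stem-loop, and U is written as T.

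Hist1h2ap: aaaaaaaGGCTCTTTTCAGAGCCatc

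Hist2h2aa2: ctaaaaaGGCTCTTTTCAGAGCCacccact

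Hist2h2ac: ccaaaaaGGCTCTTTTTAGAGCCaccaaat

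Hist1h2bb: acccaaaGGCTCTTTTAAGAGCCacccaca

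Hist1h4n: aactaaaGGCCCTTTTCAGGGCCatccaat

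Hist1h4b: tacaaaaGGTCCTTTTCAGGACCactcact

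In GRCm38 with the GENCODE vM21 annotation these stem-loops lie in exonic sequence near the transcript's 3′ end, at chr13:21833029-21833044 (minus strand) for Hist1h2ap, chr3:96239784-96239799 (minus) for Hist2h2aa2, chr3:96220418-96220433 (minus) for Hist2h2ac, chr13:23747203-23747218 (plus) for Hist1h2bb, chr13:21831798-21831813 (minus) for Hist1h4n and chr13:23757366-23757381 (plus) for Hist1h4b. Over the 22 genes there were 5 distinct 16-base forms, and Hist1h2ap and Hist2h2aa2 share the same form. The annotated transcript of Hist1h2ap ends 3 bases after the stem-loop and that of Hist2h2ac 57 bases after it. Histone genes of the other kind, with a poly(A) signal near the end of the dominant transcript, are shown by the sites below, with the signal in capitals.

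Hist1h1c: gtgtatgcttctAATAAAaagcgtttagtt

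Hist3h2a: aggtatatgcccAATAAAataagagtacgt

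Hist2h2be: gttattattattAATAAAgttaccgattag

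Hist1h2ae: cccagcttctccAATAAAtgggtcaatttt

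These signals lie at chr13:23740342-23740347 (plus strand), chr11:58956797-58956802 (plus), chr3:96223717-96223722 (plus) and chr13:23570539-23570544 (minus), between 22 and 34 bases from the annotated end.

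Replication-dependent histones were the class that was lowest in the oligo-dT library. Of 67 such genes, 32 passed the level filter, and 21 of these were at least 2-fold lower than in TG-10 against 1 that was higher, with a median log2 ratio of -1.56. The filter is a mean over both libraries, so genes near 0 in the oligo-dT library, such as Hist2h3b (0 against 3.38 CPM), passed by TG-10 alone. This favours calls of lower, for XC-1 against TG-10 as well. With no filter beyond 10 counts in either library the histone median was -1.17. Over all genes compared, 8.69% were lower and 12.4% were higher. XC-1 was at least 2-fold below TG-10 for 8 of the 32, with a median of -0.61, and 15 of the 32 were at least 2-fold lower in the oligo-dT library than in both day 0 low-input libraries, where 3.7% of all genes were. The class took 0.0117% of the counts in the oligo-dT library, 0.0455% in TG-10 and 0.0306% in XC-1. The 14 low-input libraries ranged from 0.0278% to 0.384%, so the oligo-dT library lay below all of them. Such a position was common: 13.4% of all genes compared lay below all 14 and 18.5% above. By share of counts, every class lay outside the range, other protein-coding genes too (76.6%, low-input range 80.7% to 90.4%). Lying outside it thus does not by itself set a class apart.

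Among the histone genes, those with a stem-loop had the lowest median ratio to TG-10, close to that of genes with neither motif. Of the 9 stem-loop genes that passed the level filter, 8 were lower and 0 higher, with a median log2 ratio of -1.91, against -0.74 between XC-1 and TG-10. Their summed level was 15.3 CPM in the oligo-dT library, 208 in TG-10 and 148 in XC-1. Each of the 9 shares at least 50% of its words with other genes, so their single levels are uncertain. The 14 histone genes with neither motif had a median of -1.69, with 9 lower and 0 higher, against -0.61 between XC-1 and TG-10. The 8 with a poly(A) signal had a median of -0.91, with 4 lower and 1 higher, and summed to 98.3, 152 and 116 CPM. The dominant transcript of the remaining gene, Hist1h2be, is not annotated as protein-coding, and this gene was level between the libraries (1.46, 1.35 and 1.67 CPM). For comparison, the 7705 genes outside the histones with a poly(A) signal had a median of 0.04 and the 2094 with neither had one of -0.09.

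Hist1h2ap, which encodes a core histone H2A, had the highest level of the class in TG-10, at 109 CPM in run 1 and 145 in run 2, and stood at 89.6 in XC-1. In the oligo-dT library it held less than 1 estimated count. Set against a floor of 3 counts in that library, it was at least 885-fold lower than in TG-10, an estimate that covers counting error only. Kallisto divides reads among near-identical transcripts, and 93.4% of the 31-base words of Hist1h2ap also occur in other genes. The 14 genes of its H2A group were therefore summed as well, where 2 genes were joined if at least 50% of the words of the smaller one occur in the other, and groups were built from chains of such pairs. Together they stood at 2.33 CPM in the oligo-dT library, 150 in TG-10 and 101.5 in XC-1, a 64.2-fold difference from TG-10 that does not rest on how reads were divided inside the group.

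Most of the other histone groups were also lower than in TG-10, to differing degrees, while Hist2h2be, a group of its own, was higher. Hist1h4d, an H4 gene, stood at 0.672 CPM in the oligo-dT library against 14.4 and 23.3 in the runs of TG-10 and 11.6 in XC-1, which is 29.1-fold lower than TG-10. The 9 Hist1h3 genes of H3 summed to 0.790, 7.66 and 6.94 CPM. The group of Hist2h2aa1, Hist2h2aa2, Hist2h2ac and Hist1h2al summed to 7.78, 49.1 and 44.4 CPM. The 16 genes joined by shared H2B sequence, with Hist1h1e among them, summed to 12.6, 42.4 and 32.5 CPM. Hist1h1e, a linker histone H1 gene, stood at 0.588, 23.8 and 19.2 CPM and made up much of the sum in TG-10 and XC-1. The other genes of that group therefore differed less than its sum. For each of these groups the oligo-dT library lay below both day 0 low-input libraries and below the lowest of the 14. The stem-loop gene Hist1h4b was an exception, at 1.32 CPM against 1.13 and 0.661, although its group of 7 H4 genes summed to 7.37, 19.1 and 7.17 CPM and so stood near XC-1.

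Histone genes whose dominant transcript ends in a poly(A) signal were closer between the libraries. Hist1h1c, a linker histone H1, stood at 57.5 CPM in the oligo-dT library, between TG-10 (74.4) and XC-1 (44.0), and became the most abundant replication-dependent histone there. Hist2h2be, an H2B gene, was the 1 member that was higher, at 9.69 CPM against 3.42 and 4.62. Hist3h2a was lower, at 18.6 CPM against 44.7 and 48.1. Hist1h2ae also has a signal but was at 0.083 CPM against 6.72 and 3.68, and it belongs to the H2A group described above.

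**Figure D1:**
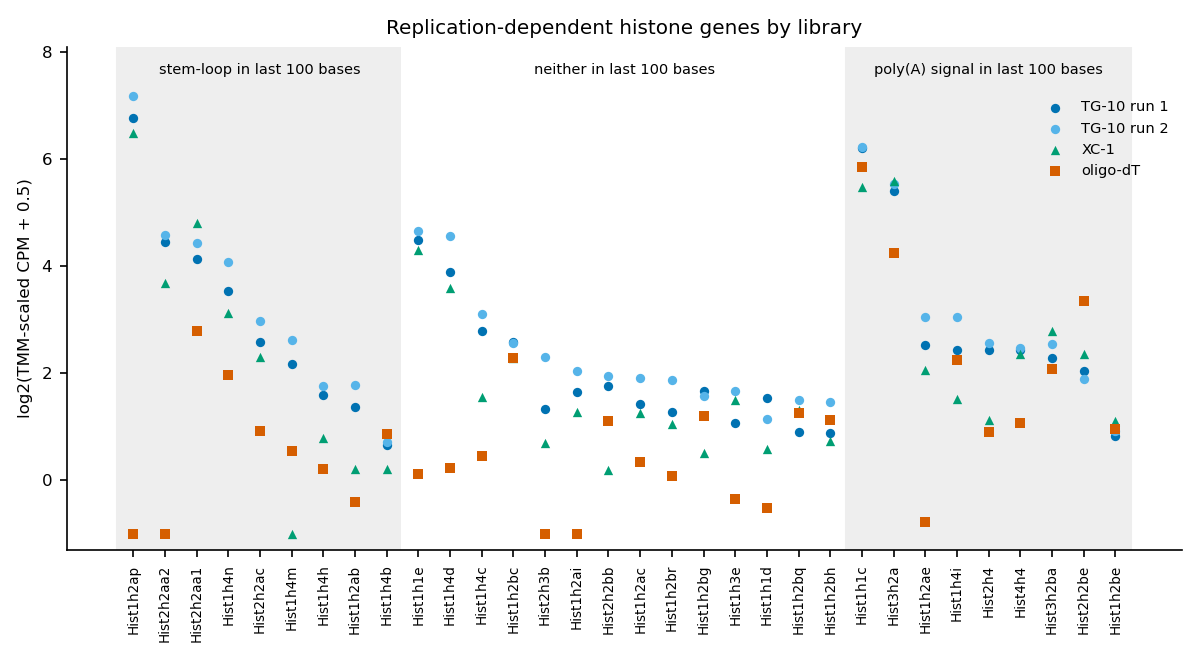
Level of each replication-dependent histone gene that passed the level filter, as log2 of TMM-scaled CPM plus 0.5, in the 2 runs of TG-10 (circles), XC-1 (triangles) and the oligo-dT library (squares), grouped by what the last 100 bases of the dominant transcript hold. At least 2-fold below TG-10 lie 8 of 9 squares in the stem-loop group and 9 of 14 in the group with neither motif. In the poly(A) signal group, which holds 8 genes and Hist1h2be, 4 squares do, and Hist1h1c and Hist2h2be do not.

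Replication-independent histones, which are made throughout the cell cycle from messengers with poly(A) tails, had a median log2 ratio of -0.55, between that of the replication-dependent histones and 0. Of 11 genes 9 were compared, with 3 lower (33.3%, where 8.69% of all genes were) and 0 higher. H3f3b stood at 918 CPM in the oligo-dT library, 1310 in TG-10 and 1224 in XC-1, and H3f3a at 595, 874 and 882. H2afz was level at 254, 239 and 221 CPM. The 3 lower genes were H2afj (38.7 against 135 and 171), H2afv (58.7 against 152 and 98.8) and Cenpa, the centromeric variant (41.4 against 83.3 and 93.0). H2afv in the oligo-dT library was within the range of the 14 low-input libraries (58.1 to 383), and H2afj lay below it (100.7 to 275).

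Beyond the histones, 1562 of the 12628 genes were at least 2-fold higher in the oligo-dT library than in TG-10 and 1097 were at least 2-fold lower, 21.1% together. Between the 2 day 0 low-input libraries the same count was 1574 (12.5%, with 6.18% higher and 6.28% lower in XC-1), and between the 2 runs of TG-10 it was 102 (0.808%). The SD of the log2 difference over genes was 1.01 between the oligo-dT library and TG-10, 1.01 between it and XC-1, 0.72 between XC-1 and TG-10, and 0.29 between the runs. Against both day 0 low-input libraries, 903 genes were higher (7.15%) and 467 were lower (3.7%). The scaling decides the balance of the directions: 58.7% of the called genes were higher with TMM, 67.0% with DESeq2's size factors (RLE) and 42.3% with total counts alone, which put the median of all genes at -0.16. Calls were more frequent among genes with shared sequence, between which kallisto divides reads: 29.8% of the 3024 genes that share more than 10% of their words were called, against 18.3% of the 9604 genes that share at most 10% (11.8% higher and 6.55% lower). For XC-1 against TG-10 these shares were 13.3% and 12.2%.

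**Figure D2:**
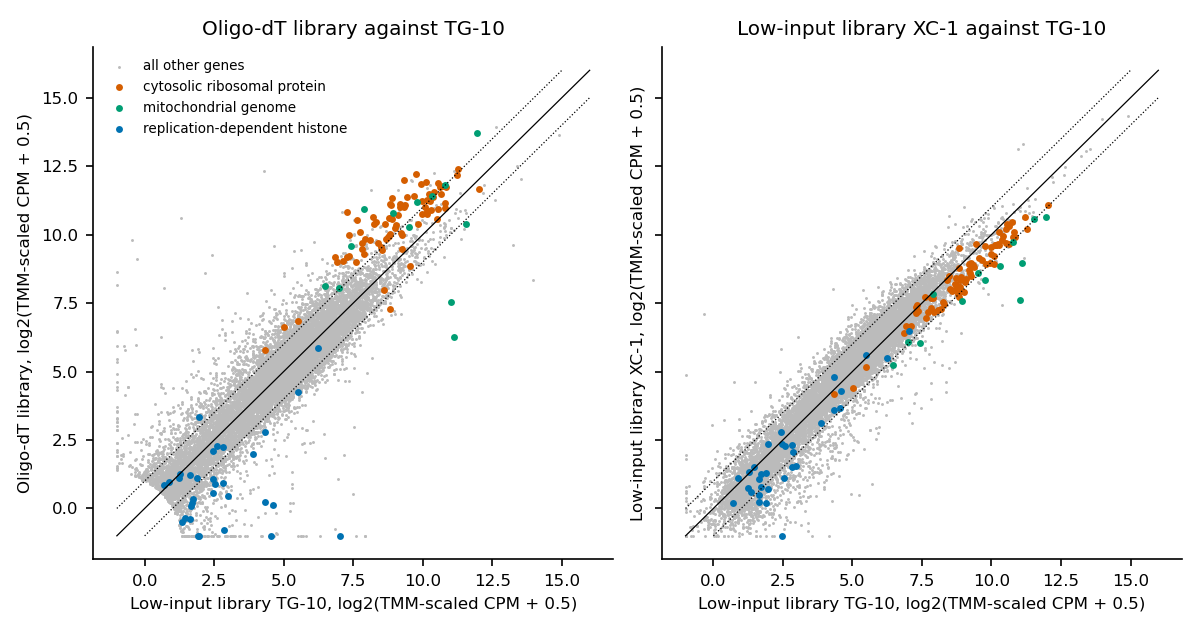
Each point is 1 of the 12628 genes compared, with the level in TG-10 on the x axis and that in the oligo-dT library (left) or XC-1 (right) on the y axis, both as log2 of TMM-scaled CPM plus 0.5, and dotted lines mark 2-fold. Ribosomal protein and mitochondrial genes lie mostly above the upper dotted line on the left and at or below the diagonal on the right, and more histone genes lie below the lower line on the left than on the right.

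Cytosolic ribosomal proteins, the protein part of the ribosomes that translate most messengers, were higher almost throughout. All 79 genes passed the filter, and 57 were at least 2-fold higher in the oligo-dT library than in TG-10 (72.2%, where 12.4% of all genes were), 1 was lower and the median log2 ratio was 1.35. The same number, 57, was higher than in both day 0 low-input libraries. XC-1 lay on the other side of TG-10 for this class, with a median of -0.54, so the distance of the oligo-dT library to XC-1 was larger (median 1.82). The genes took 12.4% of all counts in the oligo-dT library, 6.03% in TG-10 and 3.77% in XC-1, and between 3.66% and 6.79% in the 14 low-input libraries. Both subunits shared the pattern: of 46 genes of the large subunit 34 were higher (median 1.40), and of 31 of the small subunit 23 (median 1.33), while the symbols of the remaining 2 name no subunit. Against each of the 14 low-input libraries in turn, the class median lay between 0.64 and 2.19.

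Rpl10 of the large subunit had the highest log2 ratio of the class, 3.53, at 1798 CPM against 156 in TG-10 and 162 in XC-1, but its log2 ratio was 1.28 once genes that share its sequence were summed. Rps24 of the small subunit stood at 4038, 635 and 459 CPM, Rps21 at 1467, 199 and 122, and Rpl13a at 4699, 869 and 769. Each of these was above all 14 low-input libraries, as were 64 of the 79 genes of the class and 18.5% of all genes compared. The most abundant member, Rpsa, stood at 5426 CPM against 2483 and 1171, and Rplp0 of the ribosomal stalk at 4569, 2378 and 1592. Rpsa lay above all 14 low-input libraries (highest 4776), and Rplp0 lay inside their range (967 to 4990).
Rps19, at 1989 CPM against 1800 and 1091, and Rpl41, at 1528 against 1473 and 824, did not share this difference and were within 2-fold of TG-10. Ribosomal protein genes have many processed copies in the genome, and only 12 of the 79 share at most 10% of their words with other genes. Of these 12, 8 were higher, with a median of 1.29. Summing every gene with the genes that share its sequence left 59 of 79 higher and 0 lower, with a median of 1.40. By such sums 12.2% of all genes were higher and 7.59% lower, so the difference of this class stayed when the division of reads was taken out.

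The mitochondrial genome encodes 13 subunits of the respiratory chain, and 9 of these genes were higher in the oligo-dT library, 3 were lower and the median log2 ratio was 1.09, where 12.4% and 8.69% of all genes were higher and lower. They took 2.67% of the counts there, 1.70% in TG-10, 0.597% in XC-1 and at most 1.70% in any of the 14 low-input libraries. XC-1 was below TG-10 for this class, with a median of -1.33 and 9 genes at least 2-fold lower, so the 2 low-input libraries differed from each other by as much as the oligo-dT library differed from TG-10. mt-Nd1, a complex I subunit with no word shared with other genes, stood at 2708 CPM in the oligo-dT library, 1274 in TG-10 and 464 in XC-1. mt-Cytb of complex III stood at 3599, 1768 and 839, and mt-Nd4 at 2339, 877 and 321. mt-Nd6, the gene on the other strand of the genome, stood at 761, 172 and 65.3 CPM. Whether the libraries kept strand is not stated, so reads of mt-Nd6 and of the strand opposite to it cannot be told apart. The largest ratio was that of mt-Atp8, a small subunit of ATP synthase, at 1978 CPM against 235 and 226.

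The 3 mitochondrial genes that seemed lower were mt-Co2, mt-Atp6 and mt-Co3, and each has a nuclear copy whose annotated bases are all identical to it. mt-Co2, a subunit of cytochrome c oxidase, stood at 75.2 CPM in the oligo-dT library, 2217 in TG-10 and 501 in XC-1. Its nuclear copy Gm28661, an unprocessed pseudogene, stood at 5149, 19.1 and 258. The copy is identical to mt-Co2 over all 681 of its bases, and the sum of both was 5224, 2236 and 759 CPM, a log2 ratio of 1.22. mt-Atp6 went from -3.47 to 0.75 when summed with Gm10925 (678 identical bases), and mt-Co3 from -1.16 to 0.52 when summed with Gm28437 (783 identical bases). With all such sums, 10 of the 13 genes were higher and 0 lower, the median was 1.28, and the mitochondrial genes with their copies took 4.18% of the counts against 2.16% and 0.809%. Reads of these identical stretches carry no information on their origin, and the estimator placed them mostly on the copy in one library and mostly on the mitochondrial gene in the other.

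Genes with shared sequence also filled the top of the list of all genes. The named genes here are the 10 with the largest ratio each way among genes of at least 5 mean CPM, called against both day 0 low-input libraries and outside the range of all 14. This rule left 654 genes higher and 228 lower. All 10 highest share over 92% of their words with other genes. Examples are Rpl23a-ps3 (885 CPM against 0.23 and 0.22) and Rps13-ps1 (1548 against 1.95 and 0.94), processed copies of ribosomal protein genes, and Gm28661. Of the 10 lowest, 8 share over 90%, among them Rps13-ps2, with 0 counts in the oligo-dT library and 240 CPM in TG-10, and Hist1h2ap. Rps13 itself had a log2 ratio of -0.62, and of 1.51 once its copies were summed. Pseudogenes took 5.17% of the counts in the oligo-dT library, 2.64% in TG-10 and 1.79% in XC-1. Of 652 pseudogenes compared, 131 were higher (20.1%, against 12.4% of all genes) and 197 lower (30.2%, against 8.69%), with quartiles of -1.32 and 0.67, a wider spread than that of the 11634 other protein-coding genes (-0.45 and 0.54). In all, 70 compared genes held less than 0.5 counts in the oligo-dT library, and 52 of these are pseudogenes.

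The nuclear genes that work with mitochondria went the other way from the mitochondrial genome. Of 79 nuclear genes of the respiratory chain compared, 22 were lower in the oligo-dT library and 1 was higher, with a median log2 ratio of -0.80, and of 78 mitochondrial ribosomal proteins 20 were lower and 1 was higher, with a median of -0.71. These are 27.8% and 25.6% lower, where 8.69% of all genes were. The counts rest on TG-10: 4 genes of each list were lower than in both day 0 low-input libraries, a share close to the 3.7% of all genes, and XC-1 was itself below TG-10 with medians of -0.51 and -0.25. Atp5b, the catalytic subunit of ATP synthase, stood at 729 CPM against 1249 and 1112, and Ndufs7 of complex I at 61.6 against 214 and 119. Cox7a2l, which takes part in joining respiratory complexes, was the 1 higher gene of its list, at 625 CPM against 253 and 171. The lists took 0.703% and 0.241% of the counts, below each of the 14 low-input libraries (lowest 0.738% and 0.309%).

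Gene segments of the antigen receptors were also lower. Of 43 compared, 18 were lower (41.9%, where 8.69% of all genes were), 2 were higher and the median log2 ratio was -0.81. Against both day 0 low-input libraries 7 were lower, where 3.7% of all genes were. They took 1.91% of the counts, against 4.56% in TG-10, 3.09% in XC-1 and at least 2.00% in each of the 14. Trbc2, a constant region of the T cell receptor beta chain, stood at 12834 CPM against 30604 and 20630, and Trbv5, the most abundant beta chain variable segment in all 3 libraries, at 5807, 10774 and 8504. Trbc1, the other constant region, was level at 885, 1003 and 906 CPM. Trbc2 shares 48.5% of its words with other genes and Trbc1 44.8%, so their levels are less certain. The deposited tables hold segments as separate transcripts, so reads across a junction of segments could not be followed.

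Long non-coding RNA could hardly be compared. Of the genes listed in the files, 26 have a long non-coding type in GENCODE vM21 and 9 passed the filter, with 1 higher (11.1%, where 12.4% of all genes were), 0 lower and a median log2 ratio of 0.13, against -0.15 between XC-1 and TG-10. They include genes such as Cct6a, best known for its chaperonin protein, at 274 CPM against 401 and 362. The 1 higher gene was Prr33, at 12.2 CPM against 1.90 and 3.28. The class took 0.0330% of the counts, below the 0.0368% to 0.0664% of the 14 low-input libraries, and Cct6a made up most of it. None of the 9 nuclear long non-coding RNAs on the list used (Malat1, Neat1 and Xist among them) and none of its 19 small structural RNAs are among the transcripts listed, so they were not analysed here.

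**Figure D3:**
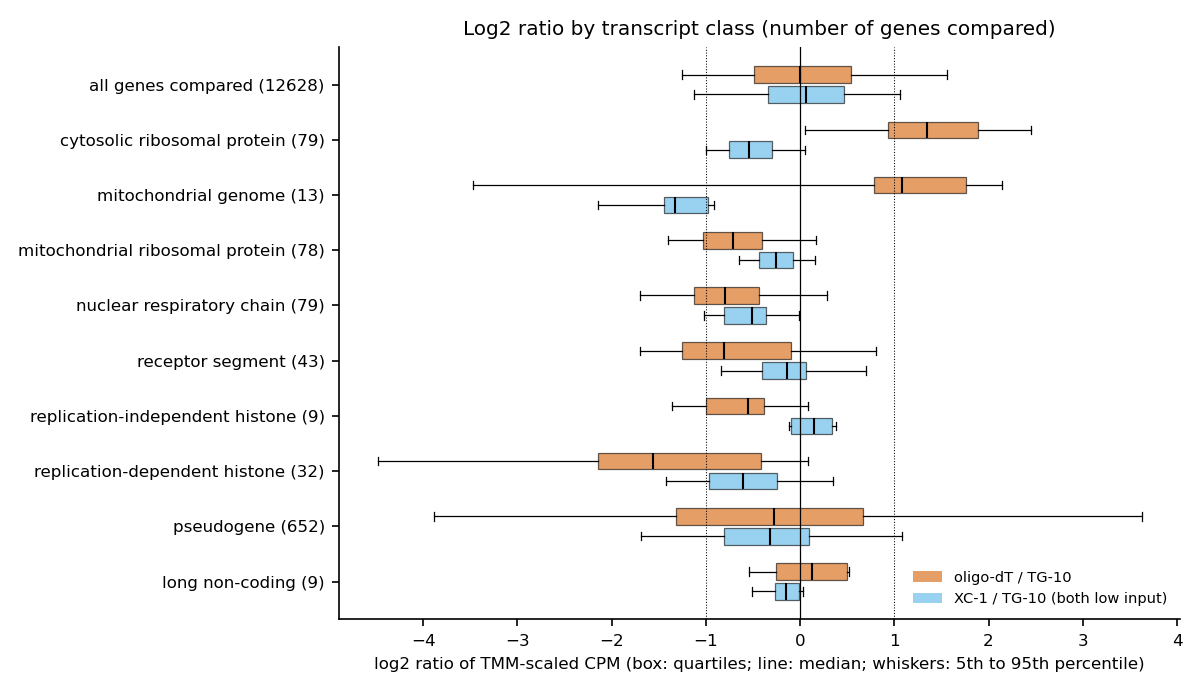
Log2 ratio of TMM-scaled CPM by transcript class, with the oligo-dT library over TG-10 in orange and XC-1 over TG-10 in blue (boxes are quartiles over genes, lines medians, whiskers the 5th to 95th percentile), and the number of genes compared in brackets. Ribosomal protein genes (median 1.35) and mitochondrial genes (1.09) lie right of 0 for the oligo-dT library and left of it for XC-1, and the replication-dependent histones (-1.56) lie furthest left.

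The transcripts chosen within a gene differed along with the levels. Among 10447 protein-coding genes with at least 2 listed transcripts, the share of a gene's TPM (a transcript level per length) on transcripts that reach within 50 bases of the gene's outermost annotated 3′ end was taken in each library. The median share was 69.9% in the oligo-dT library, 53.8% in TG-10 and 47.9% in XC-1, and the 14 low-input libraries ranged from 44.9% to 59.8%. Against TG-10, 2522 genes had a share at least 20 percentage points higher in the oligo-dT library and 814 one at least 20 points lower. Between XC-1 and TG-10 these numbers were 459 and 1225. At the outermost 5′ end the median shares were 49.2%, 48.1% and 51.5%, and the changes of 20 points against TG-10 were nearly balanced, with 1387 genes higher and 1259 lower among 10117. Reads were assigned to transcripts by the estimator, so these shares are estimates and not counts of ends.

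**Figure D4:**
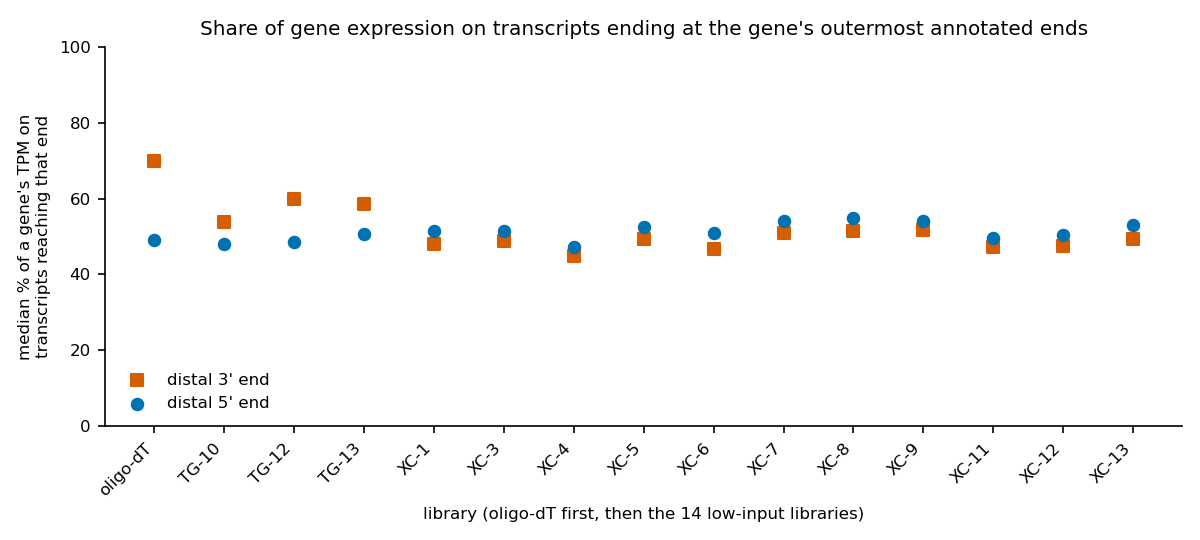
Median over genes of the percent of a gene's TPM on transcripts that reach the outermost annotated 3′ end (squares) or 5′ end (circles), for the oligo-dT library and each of the 14 low-input libraries. The oligo-dT library has the highest 3′ value, 69.9%, while its 5′ value of 49.2% lies among those of the low-input libraries.

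More genes also had a longer than a shorter mean transcript in the oligo-dT library. The TPM-weighted mean transcript length of a gene was at least 1.5 times that in TG-10 for 1250 genes and at least 1.5 times shorter for 240, of 10910 genes. Between XC-1 and TG-10 the numbers were 263 and 291. Ccnd2, which encodes cyclin D2, had a mean length of 6149 bases in the oligo-dT library, 1112 in TG-10 and 824 in XC-1. Klf13 stood at 6360, 1326 and 1035 bases. Flna, which encodes filamin A, went the other way, at 1896, 3663 and 6496 bases. These genes were picked as examples after their values were seen.

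Beta-actin shows the pattern in single transcripts. In CPM without TMM scaling, the full transcript of Actb (ENSMUST00000100497, 1920 bases) stood at 3633 in the oligo-dT library, 2430 and 2889 in the runs of TG-10 and 1669 in XC-1. The shorter ENSMUST00000167721 (1242 bases), which ends 386 bases short of the outermost 3′ end, stood at 0 in the oligo-dT library, 4727 and 4771 in the runs of TG-10 and 3341 in XC-1. ENSMUST00000171419, which ends 1236 bases short of it, stood at 5.09, 3259, 3021 and 2262 in the same order. All 14 low-input libraries held at least 3341 CPM of the 1242-base transcript and at least 2185 of the other. By annotated transcript type, those with a retained intron took 7.22% of the counts in the oligo-dT library, 9.48% in TG-10 and 9.12% in XC-1, inside the low-input range of 5.43% to 10.6%. Transcripts marked for nonsense-mediated decay took 4.06%, 5.02% and 4.69%, below the low-input range of 4.44% to 5.02%. Most of each difference came from 1 transcript, by the levels that follow. The retained-intron transcript ENSMUST00000187885 of Dock10 stood at 2.54, 15600 and 17195 CPM. ENSMUST00000217116 of Lars2, marked for nonsense-mediated decay, stood at 677, 9513 and 6833 CPM. Shares without these transcripts were not computed.

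Transcript length was related to the ratio, but as strongly between low-input libraries. Over the 12628 genes, Spearman's rho between mean transcript length and the log2 ratio of the oligo-dT library to TG-10 was 0.40. The same rho for XC-1 over TG-10 was 0.43, and for the oligo-dT library over XC-1 it was 0.06. These are descriptions over genes, which share libraries and are not replicates. The median ratio to TG-10 was -0.27 under 500 bases (342 genes), -0.62 from 500 to 1000 (1324 genes), -0.29 from 1000 to 2000 (3968 genes), 0.16 from 2000 to 4000 (5039 genes), 0.55 from 4000 to 8000 (1794 genes) and 0.19 at 8000 bases and over (161 genes). For XC-1 over TG-10 the medians in this order were -0.51, -0.40, -0.10, 0.28, 0.44 and -0.07. Over the other 2 libraries of the TG series the oligo-dT library gave a rho of 0.42 and 0.44, and over the 11 of the XC series one between -0.02 and 0.22. The relation to length was thus found against each TG library and was weak or absent against each XC library. The medians of the oligo-dT library over XC-1 lay between -0.20 and 0.25, with the highest under 500 bases, where the quartiles against TG-10 were also widest (-1.14 and 1.02). GC content had a rho of -0.11 with the ratio to TG-10, and of -0.01 for XC-1 over TG-10.

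**Figure D5:**
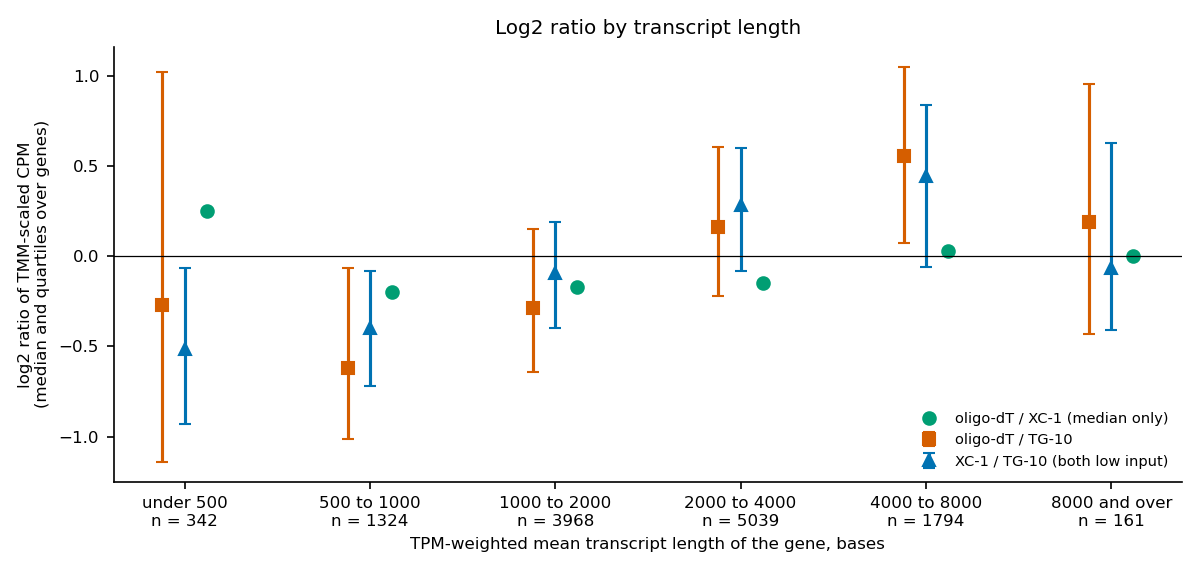
Median log2 ratio of TMM-scaled CPM in 6 bins of TPM-weighted mean transcript length (bases), with quartiles over genes as bars, for the oligo-dT library over TG-10 (squares), XC-1 over TG-10 (triangles) and the oligo-dT library over XC-1 (circles, median only). The first 2 series rise together from 500 to 8000 bases, and the circles lie between -0.20 and 0.25.

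Leading genes with little shared sequence were read by the same rule, restricted to the 425 higher and 108 lower genes that share at most 10% of their words. Midn, whose product midnolin brings proteins to the proteasome, had the largest ratio, at 165 CPM in the oligo-dT library, 5.77 in TG-10 and 22.0 in XC-1. Taf15, an RNA-binding protein of the FET family, stood at 234, 12.4 and 15.1 CPM, with at most 17.2 in any low-input library. Sun2, a protein of the inner nuclear membrane, stood at 852, 67.0 and 197, and Erf, a repressor of the ETS family, at 55.5, 3.28 and 6.31. The other 6 were Muc6, Tatdn2, Ssh3, Pip4k2b, Vat1 and Zscan25, with log2 ratios from 3.74 to 3.96.

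On the lower side the largest difference in absolute level of the 10 genes was that of Dock10, a guanine nucleotide exchange factor of lymphocytes. It stood at 327 CPM in the oligo-dT library, 15994 in TG-10 and 19112 in XC-1, and between 13629 and 24564 in the 14 low-input libraries. Nearly all of this came from 1 transcript of 1899 bases annotated as a retained intron (ENSMUST00000187885, a single exon at chr1:80520498-80522396 on the minus strand of GRCm38). Without TMM scaling it was at 2.54 CPM in the oligo-dT library, 13213 and 17403 in the runs of TG-10 and 17195 in XC-1, and its end lies 19425 bases before the outermost 3′ end of the gene. A protein-coding transcript of Dock10, ENSMUST00000077946 (7198 bases), stood at 117, 142 and 193 CPM. Lars2, the mitochondrial leucyl-tRNA synthetase, stood at 793, 9620 and 7450 CPM, most of it on a transcript marked for nonsense-mediated decay. Snhg11, a host gene of small nucleolar RNA, stood at 3.41, 143 and 75.7 CPM, and Kcna3, the potassium channel Kv1.3, at 4.80, 53.1 and 114. Bhlhe41 had the lowest ratio, at 0.958 CPM in the oligo-dT library and 12.1 in XC-1, but the runs of TG-10 differed, at 373 CPM in run 1 and 22.0 in run 2, so the size of its ratio rests on run 1. Fam196b, Saa3, Kif24, Cdc45 and Chek2 completed the 10, with log2 ratios from -5.04 to -3.56. The limit on shared words covers listed genes only. For example, 463 words of Snhg11 and 1192 of Bhlhe41 also occur in annotated RNAs that are not listed. Whether reads of such RNAs were counted here was not tested.

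Markers of the sorted cells were checked next. All 19 genes of a list of CD8 T cell and naive T cell markers were compared, and 0 of them were called in either direction, where 21.1% of all genes were, with a median log2 ratio of -0.44. Cd8a stood at 1168 CPM in the oligo-dT library, 887 in TG-10 and 782 in XC-1, and Cd8b1, the partner chain of the coreceptor, at 1199, 2088 and 2046. Ccr7, which guides naive T cells to lymphoid tissue, stood at 715, 1363 and 1538, and Tcf7, a transcription factor of naive and stem-like T cells, at 1883, 1095 and 2004. Of 15 compared genes that the study names for these data, with Tcf7 and Foxo1 among them, 2 were higher (13.3%, near the 12.4% of all genes). The higher genes were Lag3, a co-inhibitory receptor, at 7.87, 0.913 and 0.598 CPM, and Egr3, a factor induced by receptor signalling, at 18.5, 3.88 and 5.49. Both were far below the highest low-input library (168 and 97.0 CPM). Of 30 immediate early genes, 4 were higher and 1 was lower, 13.3% and 3.33%, against 12.4% and 8.69% of all genes. Fosb of the AP-1 family stood at 494 CPM against 55.9 and 16.0, while Fos stood at 1132, 1558 and 750 and Jun at 725, 815 and 932. Zfp36l2, which destabilises messengers, was higher than in TG-10 (1116 against 409 CPM) and below XC-1 (1343).

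Genes listed as markers of other cell types were detected and differed between the libraries. The 7 myeloid markers summed to 467 CPM in the oligo-dT library, 765 in TG-10 and 142 in XC-1, the 3 neutrophil markers to 110, 155 and 25.3, and the 4 erythroid markers to 1264, 2572 and 11192. The 7 B cell markers summed to 1005, 1693 and 1675, nearly all from Cd74 and Ighm, while Pax5 was at most 0.20 CPM in the 3 libraries. The oligo-dT library lay between the low-input libraries for the myeloid and neutrophil sums and below both for the erythroid and B cell sums. The 3 CD4 T cell markers summed to 14.7, 7.55 and 4.62 CPM, with the oligo-dT library above the highest of the 14 low-input libraries (12.3), and the 4 NK cell markers to 212, 151 and 161. The 5 dendritic cell markers summed to 50.0, 53.8 and 52.2 CPM, and the 3 markers of stroma and endothelium stood at 157, 115 and 190. In the oligo-dT library 4 of the 7 myeloid, 2 of the 2 neutrophil and 4 of the 4 erythroid genes compared were closer to TG-10 than to XC-1. The other marker lists were not counted in this way. Over all 1574 genes that differed at least 2-fold between XC-1 and TG-10, a limit not set for the marker genes, 842 (53.5%) were closer to TG-10. Y-linked genes were detected in all 3 libraries, with Ddx3y at 65.9, 30.2 and 102 CPM. Whether other cells were the source of these transcripts, and their part in the differences above, was not tested.

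A fit across all 15 libraries gave a further reading, in which the lone oligo-dT library, whose own spread is not measured, is assumed to vary like the low-input groups. The quasi-likelihood test of edgeR, with group and title series in the model, 5 residual degrees of freedom and Benjamini-Hochberg adjustment, set the oligo-dT library against the 2 day 0 low-input libraries. Of 15560 genes tested, 749 (4.81%) were higher and 358 (2.3%) lower at an adjusted p under 0.05. Of the 79 ribosomal protein genes 47 were higher and 1 lower, of the 13 mitochondrial genes 6 and 2, and of the 62 replication-dependent histone genes tested 0 and 10. Nothing in the sources says that these libraries came from separate mice, so the p-values measure the spread between libraries, which may be technical. The count rests on both day 0 libraries and on the series term. Without TG-10 it was 398, and the balance turned to 176 higher and 222 lower. Without XC-1 it was 375 (248 higher and 127 lower), and without the series term 194 (134 higher and 60 lower). Without the 2 early liver libraries it was 2439 (1453 higher and 986 lower).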

How the data were processed

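RNA-seq of sorted TCR Tg101 was quantified by the authors with kallisto, whose version is not given in the sources used here. For each run the authors deposited 1 table of estimated counts (expected counts) and TPM by transcript. The submitters' processing notes name GRCm38 and mm10. Transcripts were matched to GENCODE vM21 on GRCm38, which gave a gene (35865 in all) to 98.18% of the 118783 listed transcripts and to at least 98.95% of any run's counts. Runs of a library, taken from the titles (a "-2" ending was read as a further run), were summed. TG-10 runs differed by a mean chi-square per gene of 15.9, XC-1 runs by 1.88, and TG-10 and XC-1 runs by 113. The runs of TG-10 were thus less alike than those of XC-1. The labels do not state that such titles are runs of 1 library.

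Counts were scaled by TMM in edgeR 4.0.16 (R 4.3.3) relative to TG-10, with a factor of 0.888 for the oligo-dT library. Ratios used genes with a mean of at least 1 CPM and a pseudocount of 0.5 CPM. The deposited TPM served for the transcript shares within genes, for mean lengths and for 1 alternative. Estimated counts were rounded only for the edgeR fit (at least 10 counts in at least 6 libraries), with DESeq2 1.42.0 as an alternative. Shared sequence is the percent of a gene's 31-base words found in other listed genes. Depths of 22918996 counts or more make counting error small beside the difference between libraries, and floors of 3 counts cover counting error only. The edgeR fit was tested on simulated data. Python 3.11.15 with pandas 2.3.3 was used for the tables. Alternatives were other scalings, filters, pseudocounts, single runs, XC-1 as reference, and left-out libraries.

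The members and gene lists were chosen with earlier results of these data known. The rule for named genes took up to 4 members of each class by level, the 10 most extreme genes each way, and the marker lists. Further class members, the transcript-end analyses, the limit on shared sequence and the sums over similar genes were chosen after the values were seen. Some genes that this rule names are not reported here.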

Additional observations from a re-analysis of the deposited data

How the results depend on the processing

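Of 117 alternative values, 84 stayed near the reported value, 31 moved and 2 changed sign. Near means within 1.5-fold for a count of genes, and otherwise within a tolerance set by the difference between XC-1 and TG-10. These limits are wide. Total counts alone gave 1162 higher and 1585 lower genes, and deposited TPM a mitochondrial log2 share of 1.19 against 0.65, and all of these counted as near. Both sign changes concern the long non-coding median (0.13 as reported, 9 genes), which was -0.0015 with total counts and -0.0069 with no filter beyond 10 counts. It was 0.36 at a mean of 5 CPM or more, 0.36 for genes with little shared sequence, and 0.26 with run 2 of TG-10 or with XC-1 as reference. With XC-1 as reference the histone median was -0.98, the ribosomal protein median 1.82, the mitochondrial median 2.54, the medians of genes with a poly(A) signal and with neither motif -0.13 and -0.18, and the rho with length 0.076. The log2 share of counts was then -1.39 for histones, -0.27 for long non-coding genes, 1.72 for ribosomal proteins and 2.16 for mitochondrial genes, against -1.96, -0.52, 1.05 and 0.65 with TG-10. By deposited TPM the histone value was -2.49. The rank correlation with length (0.40) was 0.27 against the mean of both low-input libraries, 0.48 at 5 CPM or more, 0.47 for genes with little shared sequence, 0.32 over summed similar genes and 0.36 with the longest transcript. The number of lower genes (1097) was 674 at 5 CPM or more, 724 with a pseudocount of 2 and 629 with little shared sequence. The pseudocount of 2 put the histone median at -0.92. The stem-loop median was -2.58 over summed similar genes, and the median with neither motif was -0.068 for genes with little shared sequence. The pooled fit called 1107 genes, 194 without the series term, 2439 without the early liver libraries, 2025 with DESeq2's Wald test, and 375 to 398 with 1 day 0 low-input library left out. The cause of these shifts was not tested.

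No paired analysis was possible because the oligo-dT group has 1 library. The main limit is 1 library on one side. Libraries were not compared at matched depth, and differences in RNA input, mouse and sequencing date cannot be told apart from the library method. The title series is only taken to be the sequencing batch.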
